A study of Mus musculus with 6 samples.

Results

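Genes from families of secreted developmental signals were examined in maps of methylated DNA from I/11 cells. This erythroblast line was made from the fetal liver of p53-deficient mouse embryos at day E12.5. The set holds 51 of the 21887 protein-coding mouse genes in the reference annotation: 19 Wnt genes, 20 Fgf genes, 6 Bmp genes, 3 hedgehog genes and 3 Bmp antagonists (Nog, Chrd and Grem1). Its members were chosen by name, with earlier results of these data known. All 51 were found in the annotation.

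The series has 6 libraries, 1 for each combination of a hairpin (133 or 14 against Plcg1, or a scrambled control) and a time. Plcg1 codes for phospholipase C gamma 1. Cells infected with lentivirus were selected with puromycin at 1 µg/ml for 48 h and taken 72 h after infection (0 h of differentiation), or 96 h after infection, of which the last 24 h were in differentiation medium with 10 U/ml erythropoietin (Epo). Before differentiation all cells grew with 1 U/ml Epo, 100 ng/ml stem cell factor and 1 µM dexamethasone. All groups share the p53-deficient background of this single line, and its cell type cannot be checked against marker transcripts because DNA alone was measured. Methylated fragments of about 150 bp were captured from 3 µg of DNA with MBD2-Fc, a methyl-CpG binding domain joined to an antibody tail, and the fraction released by 1 M NaCl was sequenced. That fraction is rich in fragments that carry many methylated CpG.

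The results rest on the 4 Plcg1 hairpin libraries, and the scrambled hairpin libraries were not analysed here. At 0 h the peak list of hairpin 133 has 3900 entries and that of hairpin 14 has 3437. The 24 h lists have 2960 and 2666. A peak is a stretch of 151 bp (1 peak of 120 bp) given by its coordinates alone, with no height, count or direction. No source used here says what the peaks were called against, so a listed region cannot be read as more or as less methylated than in the control cells, and lists of a time may share a control library. Depth is unknown. Each group is 1 library with no replicate, no test of hairpin or time was made, and every count below describes these 4 lists. No peak lay in Plcg1 or within 10 kb of it (chromosome 2, 160731310 to 160775760), which says nothing of the knockdown, since no transcript was measured.

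Wnt proteins are lipid-modified ligands of Frizzled receptors with Lrp co-receptors and stabilise beta-catenin or act through other routes. Fgf proteins bind receptor tyrosine kinases, for which phospholipase C gamma is a direct partner; a subfamily (Fgf11, Fgf12 and Fgf14 here) stays inside the cell and binds sodium channels. Bmp proteins signal through Smad factors and are held back by noggin, chordin and gremlin, and hedgehog proteins bind Patched and so free Smoothened and the Gli factors. In the blood system, Bmp4 and hedgehog signals are known for a part in stress erythropoiesis in the mouse spleen. Many of these genes have CpG-rich starts, and most are expressed in the few tissues that they pattern.

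The 7 promoter stretches shown are those of members with a region in all lists or with a peak inside the stretch. Each is the 250 bases before an annotated start, 5′ to 3′ on the strand of the gene, from the RefSeq promoter table (build GRCm38.p6, the same coordinates as mm10). Start sites were found there for 37 of the 51 members. Fgf10, Wnt9b and Dhh held a region common to all 4 lists just downstream of the stretch shown, and in these 3 capitals mark CpG, the letters CG, which read the same on both strands.
Fgf10 (chr13:118714449-118714698, plus strand): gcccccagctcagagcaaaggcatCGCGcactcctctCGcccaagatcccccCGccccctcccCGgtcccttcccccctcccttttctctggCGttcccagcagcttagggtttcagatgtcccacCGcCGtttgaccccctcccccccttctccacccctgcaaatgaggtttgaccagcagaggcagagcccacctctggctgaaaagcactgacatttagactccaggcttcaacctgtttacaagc
Wnt9b (chr11:103749822-103750071, minus strand): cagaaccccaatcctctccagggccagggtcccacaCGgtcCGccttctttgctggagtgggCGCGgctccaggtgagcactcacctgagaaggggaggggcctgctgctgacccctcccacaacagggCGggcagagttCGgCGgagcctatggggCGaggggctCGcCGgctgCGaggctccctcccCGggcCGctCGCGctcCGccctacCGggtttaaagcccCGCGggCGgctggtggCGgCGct
Dhh (chr15:98898541-98898790, minus strand): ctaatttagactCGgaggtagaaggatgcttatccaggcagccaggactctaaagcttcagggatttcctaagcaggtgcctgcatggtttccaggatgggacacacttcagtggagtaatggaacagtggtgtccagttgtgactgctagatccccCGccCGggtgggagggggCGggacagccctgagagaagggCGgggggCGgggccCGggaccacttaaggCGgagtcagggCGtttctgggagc
In the other 4 a peak reached into the stretch itself, and capitals mark the bases inside the peak.
Wnt2b (chr3:104961710-104961959, minus strand): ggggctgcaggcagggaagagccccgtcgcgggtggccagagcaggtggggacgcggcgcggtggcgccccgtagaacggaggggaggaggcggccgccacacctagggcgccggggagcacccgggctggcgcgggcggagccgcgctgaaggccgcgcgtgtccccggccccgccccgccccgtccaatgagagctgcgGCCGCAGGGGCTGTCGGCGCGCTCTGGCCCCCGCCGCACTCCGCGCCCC
Wnt6 (chr1:74771642-74771891, plus strand): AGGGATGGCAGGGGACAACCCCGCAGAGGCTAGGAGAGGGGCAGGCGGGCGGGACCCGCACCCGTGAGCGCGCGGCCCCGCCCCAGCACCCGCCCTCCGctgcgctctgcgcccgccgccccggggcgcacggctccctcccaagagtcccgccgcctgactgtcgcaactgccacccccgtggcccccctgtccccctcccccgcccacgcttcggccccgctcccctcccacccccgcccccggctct
Fgf2 (chr3:37348403-37348652, plus strand): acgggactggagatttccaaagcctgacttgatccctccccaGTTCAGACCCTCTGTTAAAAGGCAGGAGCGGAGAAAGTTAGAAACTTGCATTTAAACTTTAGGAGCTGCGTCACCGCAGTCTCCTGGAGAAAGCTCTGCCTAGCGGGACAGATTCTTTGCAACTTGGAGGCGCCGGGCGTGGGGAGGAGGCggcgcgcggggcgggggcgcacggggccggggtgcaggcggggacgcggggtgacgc
Fgf21 (chr7:45615491-45615740, minus strand): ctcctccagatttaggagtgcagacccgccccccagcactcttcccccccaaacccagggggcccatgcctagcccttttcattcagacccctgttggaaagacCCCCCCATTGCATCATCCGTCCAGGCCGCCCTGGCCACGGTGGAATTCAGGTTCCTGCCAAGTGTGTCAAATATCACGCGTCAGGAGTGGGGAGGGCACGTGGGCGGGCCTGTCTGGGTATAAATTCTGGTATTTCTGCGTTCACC

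Not all CpG of these 4 stretches lay inside the peak. The 49 bases of Wnt2b inside a peak held 8 of its 36 CpG, the 99 bases of Wnt6 held 11 of 28, and the 151 bases of Fgf2 held 7 of 20. In Fgf21 the 146 bases inside the peak, which end at the start, held 8 of 9 CpG. The stretches of Fgf10, Wnt9b and Dhh held 8, 22 and 9 CpG.

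A gene was counted as having a peak when a peak overlapped its body or the 10 kb on either side by at least 1 bp. With hairpin 133 at 0 h, 9 of the 51 member genes had a peak (17.6%), against 12.7% of all protein-coding genes. With hairpin 14 at 0 h, 17 had one (33.3%, against 11.0%). At 24 h the numbers were 15 with hairpin 133 (29.4%, against 10.5%) and 13 with hairpin 14 (25.5%, against 9.72%). The share was thus 1.39 times that of all genes in the list of hairpin 133 at 0 h, which is the longest list, and 2.62 to 3.02 times in the other lists. Because the set was chosen with earlier results of these data known, these ratios are descriptive only. Median gene length was alike, 19.7 kb for the member genes and 17.2 kb for all genes. The median does not show the longest members, Fgf12 (595 kb) and Fgf14 (703 kb), and counts per gene were not adjusted for length. Over any list, 27 of 51 had a peak, or 52.9%, against 26.0% of all genes.

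**Figure D1:**
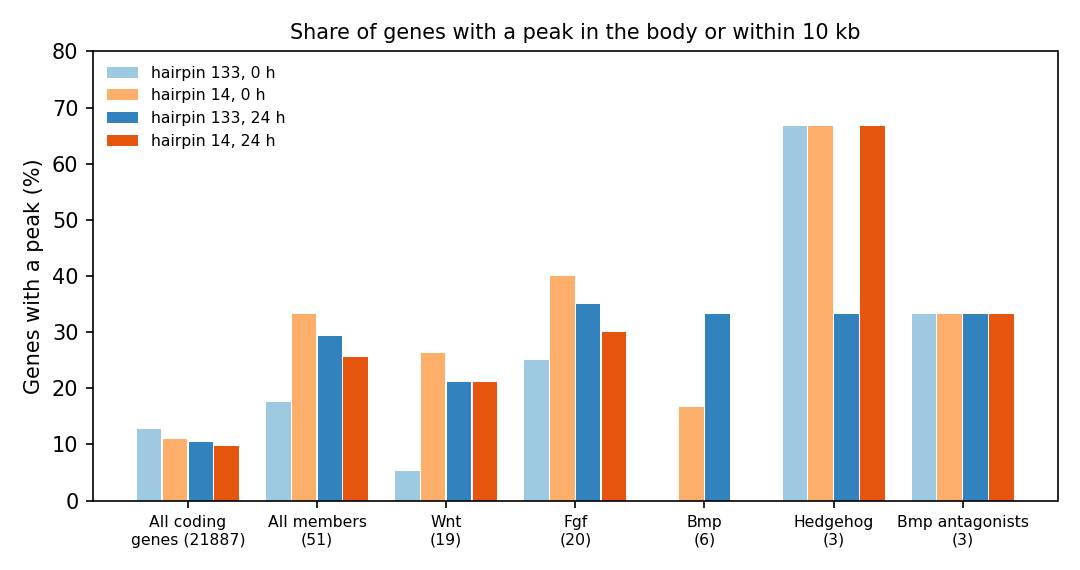
Share of genes (percent, y axis) with a peak in the body or within 10 kb, for all protein-coding genes, all 51 members and each family (number of genes in brackets), with 1 bar for each of the 4 peak lists. Fgf genes stand at 25 to 40% and all genes at 9.72 to 12.7%; the bars of the Bmp, hedgehog and antagonist groups rest on 3 or 6 genes.

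Peak density in the windows of these genes was likewise lowest with hairpin 133 at 0 h, and in each list it was above that of all genes. Hairpin 133 gave 3.19 peaks per Mb of window at 0 h and 5.32 at 24 h, and hairpin 14 gave 4.79 and 4.26, where windows of all protein-coding genes had 2.16 and 1.70 with hairpin 133 and 1.87 and 1.59 with hairpin 14. The member windows held 12 of the 3900 peaks of hairpin 133 at 0 h (0.308%, exact binomial 95% interval 0.159 to 0.537%) and 18 of the 3437 of hairpin 14 (0.524%, 0.311 to 0.826%). At 24 h they held 20 of 2960 (0.676%, 0.413 to 1.04%) and 16 of 2666 (0.600%, 0.343 to 0.973%). These intervals cover counting error only and overlap among all 4 lists.

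The 66 peaks merged into 44 distinct regions, and 33 of these were found in 1 list. A further 4 were in 2 lists, 3 in 3 lists and 4 in every list. Of the 10085 regions of the 4 lists 7989 were single-list regions and 238 (2.36%) were in every list, against 9.09% of the members' regions. These sets are unlike, since 7157 of the 10085 lay in windows of protein-coding genes and the rest did not. Of the members' 4 regions in every list, 2 lie in Fgf10. At 0 h, 4 members held a region of both hairpins (7.84%, against 4.61% of all genes): Wnt9b, Fgf10, Shh and Dhh. At 24 h, 6 did (11.8%, against 3.38%): Wnt9b, Fgf8, Fgf9, Fgf10, Dhh and Chrd. Regions of all 4 lists lay in 3 members, Wnt9b, Fgf10 and Dhh (5.88%, against 1.28%). All 5 regions of both hairpins at 0 h and all 7 at 24 h had the same start and end with both hairpins. So had 79.4% and 92.8% of all such regions of the lists. All 10 regions found at both times were offset between the times, by 2 to 28 bp, as were 97.3% of the 925 such regions of the 4 lists.

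**Figure D2:**
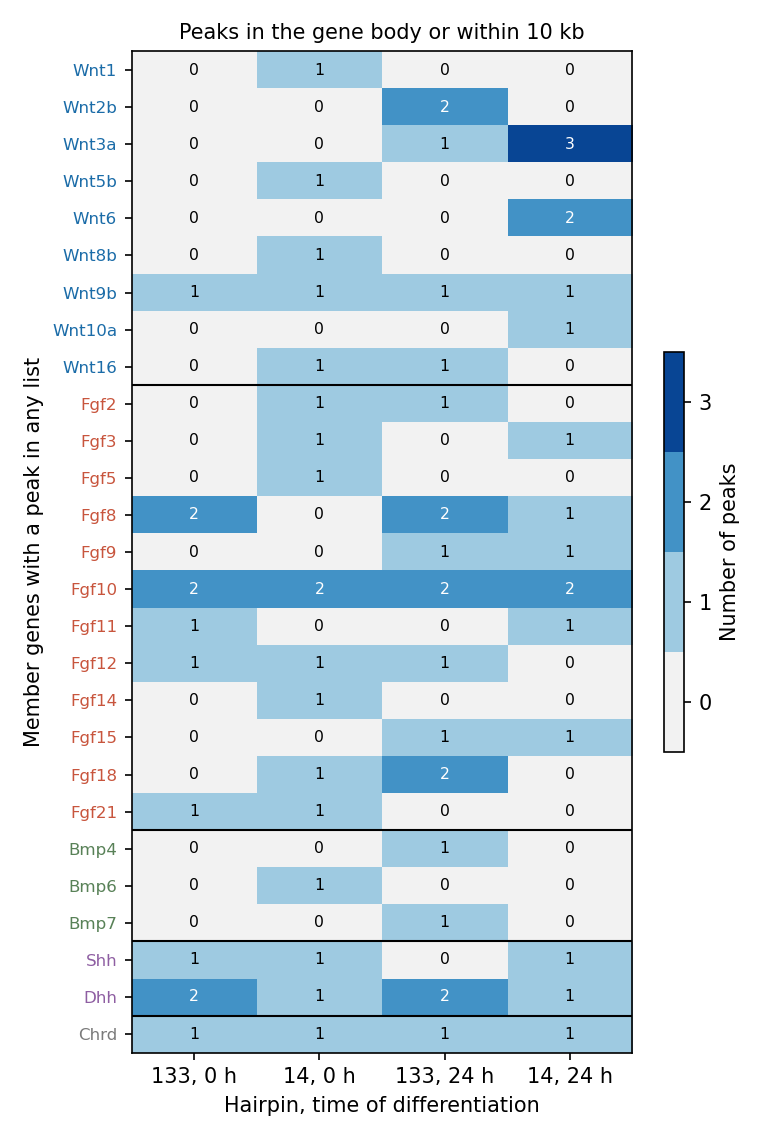
Number of peaks (colour and digit) in the gene body or within 10 kb for the 27 members with a peak in any list (rows, grouped by family: Wnt, Fgf, Bmp, hedgehog and Bmp antagonist) in each of the 4 lists (columns: hairpin, time). Fgf10 has 2 peaks in each list, and Wnt9b, Dhh and Chrd have at least 1 in each.

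Among the Wnt genes, 9 of 19 had a peak in at least 1 list (47.4%, against 26.0% of all genes). With hairpin 133 the number was 1 at 0 h (5.26%, below the 12.7% of all genes) and 4 at 24 h (21.1%, against 10.5%). With hairpin 14 it was 5 at 0 h (26.3%, against 11.0%) and 4 at 24 h (21.1%, against 9.72%). Wnt9b, a ligand of kidney and urogenital duct development (chromosome 11, 103727362 to 103775272), was the member of the family found in all lists. Its region lay 415 bp downstream of the annotated start, in the gene body; the peaks began at 103749337 in both 0 h lists and at 103749325 in both 24 h lists. Wnt3, whose annotated body overlaps that of Wnt9b at one end, had no peak within 10 kb.

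Peaks of Wnt3a, a ligand of the beta-catenin pathway that acts in body axis formation, were found at 24 h and not at 0 h. Its list with hairpin 14 held 3 peaks, 332 bp upstream, 1078 bp downstream and 15503 bp downstream of the start, and its list with hairpin 133 held 1, 306 bp downstream. The peak of hairpin 133 lay between those of hairpin 14, with 621 and 487 bases between them, and overlapped neither. Wnt16, a ligand known from bone, held 1 region 1397 bp downstream of the start, with hairpin 14 at 0 h and with hairpin 133 at 24 h. These lists share neither hairpin nor time.

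The other Wnt genes with a peak had it in 1 list. Wnt2b held 2 peaks with hairpin 133 at 24 h, 1 centred 26 bp downstream of the start and 1 centred 343 bp upstream. Wnt6 held a peak 227 bp upstream of the start with hairpin 14 at 24 h, and a second peak of that list lay in the body of the neighbouring Wnt10a and inside the windows of both genes, so these 2 counts share a peak. Wnt1 (3003 bp downstream of the start), Wnt5b and Wnt8b had 1 peak each, with hairpin 14 at 0 h; the last 2 lay outside the gene bodies, 5982 and 9247 bp away. No peak was found for Wnt2, Wnt3, Wnt4, Wnt5a, Wnt7a, Wnt7b, Wnt8a, Wnt9a, Wnt10b and Wnt11.

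Among the Fgf genes, 12 of 20 had a peak in at least 1 list (60%, against 26.0% of all genes). With hairpin 133 the number was 5 at 0 h (25%, against 12.7% of all genes) and 7 at 24 h (35.0%, against 10.5%). With hairpin 14 it was 8 at 0 h (40.0%, against 11.0%) and 6 at 24 h (30.0%, against 9.72%). Fgf10, the mesenchymal ligand of lung and limb budding (chromosome 13, 118714699 to 118792573), had 2 peaks in every list, centred 482 and 935 bp downstream of the start and separated by 300 bases. Starts differed between the times by 2 bp in the first region and by 3 bp in the second, and not between hairpins. Both regions lie near the start of a gene 77.9 kb long, and no other peak was listed in its window.

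Fgf8, the ligand of brain and limb organisers (chromosome 19, 45736491 to 45742941), held a region at 45741677 to 45741845 with hairpin 133 at both times and with hairpin 14 at 24 h. A peak at 45737120 was found with hairpin 133 at 0 h, and 1 at 45733759, outside the body, with hairpin 133 at 24 h. With hairpin 14 at 0 h no peak was listed in its window. Fgf9, a ligand of gonad and lung development, held 1 region at 24 h, 2375 bp downstream of the start, with identical coordinates for both hairpins. Fgf3, a ligand of inner ear development, held a region 667 bp downstream of the start with hairpin 14 at both times, and not with hairpin 133. Its neighbour Fgf4, whose window overlaps, had no peak.

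Peaks of different lists lay close to each other without overlapping in Fgf2 and Fgf15, and further apart in Fgf21 and Fgf18. In Fgf2, basic fibroblast growth factor, the peak of hairpin 14 at 0 h was centred 345 bp upstream of the start and that of hairpin 133 at 24 h 133 bp upstream, with 61 bases between them; both lie in the annotated body of the antisense gene Fgf2os. In Fgf15, the bile acid induced hormone of the gut, the 24 h peaks of hairpins 14 and 133 had 132 bases between them, and both also fall in the body of a predicted gene. Fgf21, a hormone of fasting liver, had a peak 71 bp upstream of the start with hairpin 14 at 0 h and another beyond the gene, 5356 bp downstream of the start, with hairpin 133 at 0 h. Fgf18, a ligand of bone and lung, held peaks 556 and 24436 bp downstream with hairpin 133 at 24 h and 1 at 3241 bp with hairpin 14 at 0 h.

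The intracellular members differed from one another in size and position. Fgf11 is 6.88 kb long and held a peak 595 bp upstream of the start with hairpin 133 at 0 h, which is also within 1 kb of an end of Tmem102, and 1 peak 2003 bp downstream with hairpin 14 at 24 h. Fgf12 is 595 kb long and held 3 peaks in 3 lists (both at 0 h, and hairpin 133 at 24 h), each over 50 kb from any of its annotated starts. Fgf14 is 703 kb long and held 1 peak, with hairpin 14 at 0 h. That peak, at 124676266 to 124676416, lay near an end of the body (124677686) and 483795 bp upstream of the nearest annotated start. Longer genes have more room for a peak, and counts per gene were not adjusted for length. Fgf5 had 1 peak, 7186 bp outside the body, with hairpin 14 at 0 h. No peak was found for Fgf1, Fgf4, Fgf6, Fgf7, Fgf17, Fgf20, Fgf22 and Fgf23.

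Among the Bmp genes, 3 of 6 had a peak in at least 1 list (50%, against 26.0% of all genes). With hairpin 133 the number was 0 at 0 h (against 12.7%) and 2 at 24 h (33.3%, against 10.5%). With hairpin 14 it was 1 at 0 h (16.7%, against 11.0%) and 0 at 24 h (against 9.72%). Their windows held 5.78 regions per Mb, against 5.56 for all genes. Bmp4, the Bmp of stress erythropoiesis, held 1 peak with hairpin 133 at 24 h, 1052 bp downstream of the start. Bmp6, which controls hepcidin and so iron, had 1 peak with hairpin 14 at 0 h, 6706 bp outside its body and inside the body of Txndc5. Bmp7, a kidney and eye ligand, had 1 with hairpin 133 at 24 h, 4981 bp outside its body. No Bmp gene had a peak in more than 1 list, and Bmp2, Bmp3 and Bmp5 had none.

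Of the 3 Bmp antagonists, 1 had a peak in at least 1 list (33.3%, against 26.0% of all genes). Chrd, the gene of chordin, had 1 peak in every list. In 3 lists it fell in a region at 20733630 to 20733796 on chromosome 16, 586 bp downstream of the start: hairpin 133 at both times and hairpin 14 at 24 h. With hairpin 14 at 0 h the peak lay at 20733413 to 20733563, with 66 bases between it and that region. Both lie also in the annotated body of Thpo, the gene of thrombopoietin, a cytokine of megakaryocytes and blood stem cells, so they cannot be given to Chrd alone. Nog and Grem1 had no peak.

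Of the 3 hedgehog genes, 2 had a peak in at least 1 list (66.7%, against 26.0% of all genes). Dhh and Shh had peaks and Ihh, the hedgehog of cartilage and gut, had none. Dhh, the hedgehog of Schwann and Sertoli cells (chromosome 15, 98881615 to 98898562), held a region 460 bp downstream of the start in all 4 lists, starting at 98898002 at 0 h and at 98898008 at 24 h with both hairpins. A second region, 4490 bp downstream, was found with hairpin 133 at both times and not with hairpin 14. Shh, the hedgehog of neural tube and limb (chromosome 5, 28456840 to 28467101), held 1 region at 28465285 to 28465461, with both hairpins at 0 h and with hairpin 14 at 24 h. With hairpin 133 at 24 h it was not listed.

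Where a start is annotated, regions lay from next to the start to over 5 kb from it. Of the 37 pairs of a member and a region, 17 (45.9%) were centred within 1 kb of the start, 10 downstream and 7 upstream. A further 8 lay 1 to 5 kb downstream and 12 (32.4%) over 5 kb away. Over all protein-coding genes with an annotated start the share within 1 kb was 14.9% of 6819 pairs, and that over 5 kb away was 72.1%. Among regions of at least 2 lists the share within 1 kb was 6 of 9 (66.7%) for the members and 27.3% for all genes, and all 9 of the members' regions lay between 415 and 4490 bp downstream. The 7 regions upstream within 1 kb came from 1 list each.

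Counted by gene, 12 of the 37 members with an annotated start had a region within 1 kb of it in any list, against 5.01% of the 17492 coding genes with one. By list the number was 5 of 37 with hairpin 133 at 0 h (13.5%, against 2.18%) and 7 with hairpin 14 at 0 h (18.9%, against 2.04%). At 24 h it was 8 with hairpin 133 (21.6%, against 2.36%) and 7 with hairpin 14 (18.9%, against 2.39%).

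**Figure D3:**
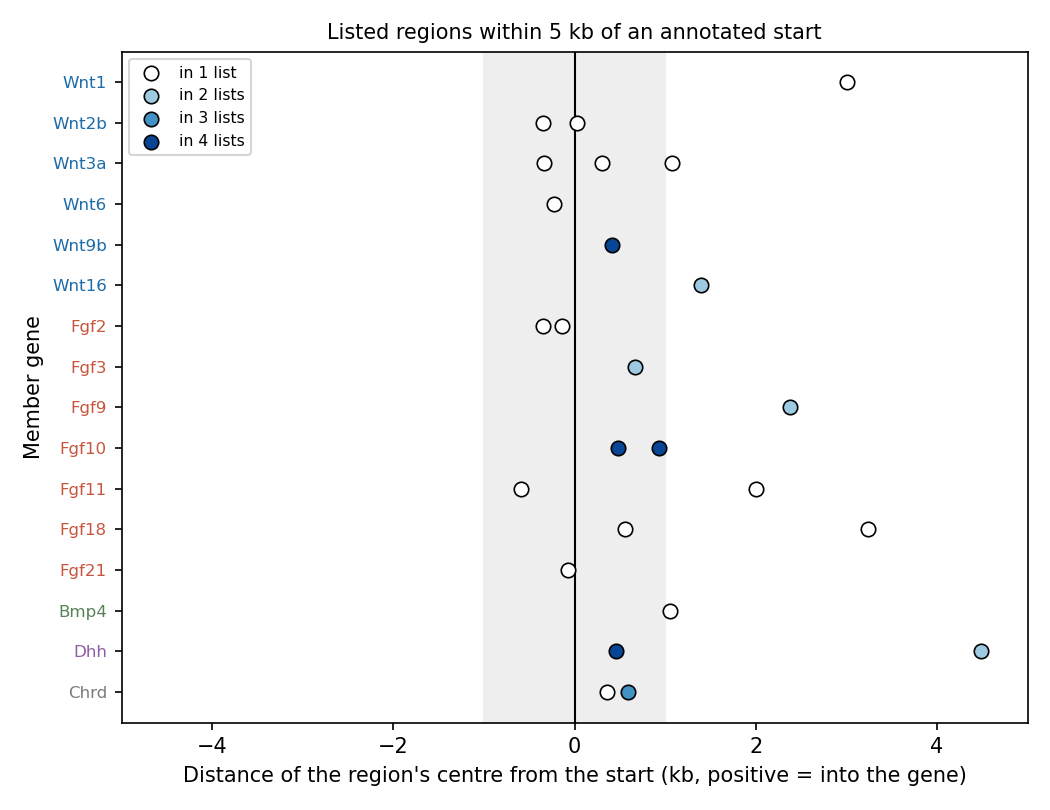
Distance in kb (x axis) from the annotated start to the centre of each listed region, for members (rows) with a region within 5 kb; negative is upstream, shading marks 1 kb on either side, and darker points are regions found in more lists. The regions of 2 or more lists shown here all lie downstream of the start, and those up to 1 kb upstream are open circles, found in 1 list. The regions of Fgf8 and Shh found in 3 lists are not shown, because these genes have no annotated start.

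CpG content of the promoter did not separate members with a region at the start from those without a region. The 300-base window from 250 bases before to 50 after the start held a median of 26.5 CpG (5 to 47) in the 12 members with a region within 1 kb, 19 (6 to 47) in the 10 with a region elsewhere in the window of the gene, and 27 (4 to 58) in the 15 with none. Over 17492 protein-coding genes the median was 15, and 59.5% had at least 10, against 32 of the 37 members. At least 1 CpG was present in 95.0% of all windows. The 4 members with peaks in all lists, Fgf10, Dhh, Wnt9b and Chrd, had 10, 12, 29 and 34 CpG. Among members without a peak the number went from 4 in Bmp5 and 6 in Fgf23 to 51 in Wnt4 and 58 in Wnt9a. Where a gene has several annotated starts, the window with the most CpG was used. Bases of the regions themselves were read where they fall in such a window, so CpG counts inside most regions were not analysed here.

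**Figure D4:**
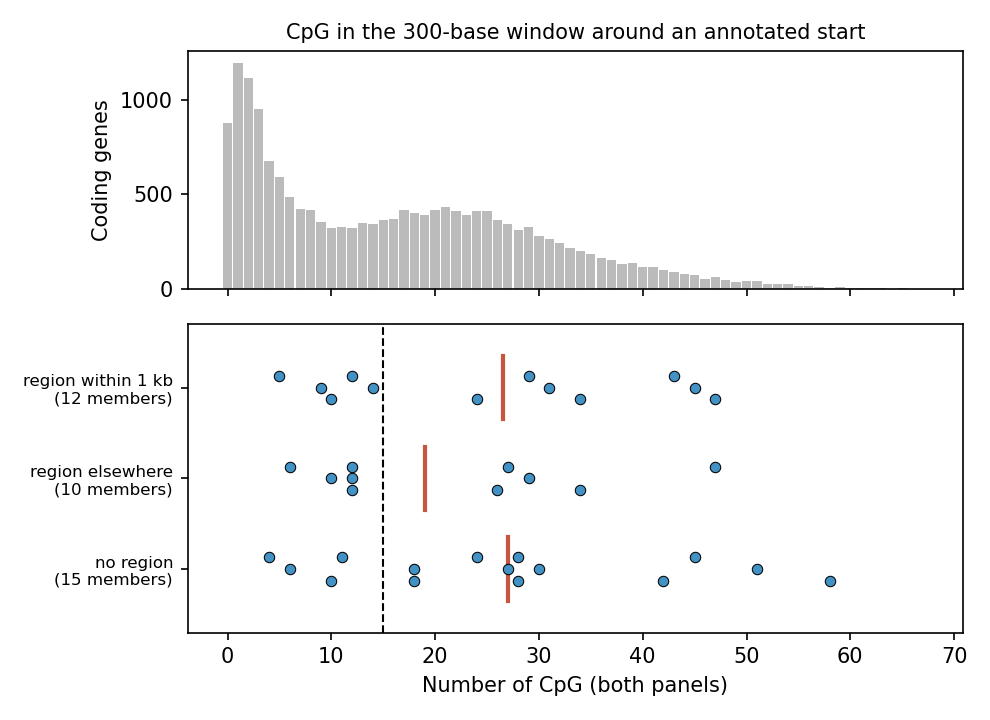
Number of CpG in the 300-base window around an annotated start (x axis), as a histogram over 17492 protein-coding genes (top, number of genes) and for 37 members in 3 groups (bottom, 1 point per gene, shifted vertically for legibility, red bar for the group's median, dashed line for the median of all genes). The medians are 26.5, 19 and 27, each above 15 for all genes, and the groups overlap over nearly their whole range.

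Members with no peak in any list numbered 24. Their nearest listed region lay 10.4 kb (Wnt3) to 704 kb (Wnt2) from the gene body, with a median of 60.8 kb. For 11 of them it was within 50 kb and for 7 over 100 kb away.

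The other genes of these pathways differed from list to list. In the order of hairpins 133 and 14 at 0 h, then at 24 h, the shares of all genes were 12.7, 11.0, 10.5 and 9.72%, and values below keep that order. Of 99 receptors, antagonists, effectors and further ligands, 17, 11, 13 and 12 had a peak (17.2, 11.1, 13.1 and 12.1%). Among 18 Wnt receptors and co-receptors 5, 6, 4 and 3 had a peak, or 27.8, 33.3, 22.2 and 16.7%. Each of these shares was above that of all genes in the same list. The Wnt ligands were below all genes with hairpin 133 at 0 h (5.26%, against 12.7%) and above them in the other lists. Lgr5, the R-spondin receptor of stem cells, had 6, 7, 5 and 2 peaks, Fzd2, a Wnt receptor, 1, 2, 1 and 1, and Ror2, a receptor of Wnt5a, 2, 2, 0 and 1. Among 17 extracellular regulators of Wnt signalling 2, 1, 2 and 2 had a peak (11.8, 5.88, 11.8 and 11.8%), led by the antagonists Dkk2 (2, 0, 0 and 1 peaks) and Wif1 (1, 1, 0 and 0) and by the agonist Rspo4 (0, 0, 1 and 1).

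On the Fgf side, 1 of 12 receptors and feedback inhibitors had a peak (8.33, 8.33, 8.33 and 0%, below all genes in each list). It was Fgfr2, a receptor of Fgf10 in epithelium, with 1, 1, 1 and 0 peaks. Among 13 Bmp receptors and Smads, Acvrl1 and Smad6 had 1 peak each with hairpin 133 at 0 h (15.4%, against 12.7% of all genes). None of the 13 had a peak in another list. Of the 9 other Bmp antagonists Fst, the gene of follistatin, had 1, 0, 2 and 3 peaks and the rest none (11.1, 0, 11.1 and 11.1% of genes). Among 12 hedgehog receptors and effectors 2, 2, 2 and 3 had a peak (16.7% in the first 3 lists and 25% in the last). Gli1, a target and effector of the pathway, had 3, 1, 2 and 1, the co-receptor Cdon 0, 1, 0 and 1 and the antagonist Hhip 1, 0, 0 and 1. Among 18 ligands of the same families outside the set 4, 1, 3 and 3 had a peak (22.2, 5.56, 16.7 and 16.7%), led by Gdf10 (1, 0, 1 and 2), Gdf2 (2, 0, 1 and 1) and Gdf6 (1, 0, 0 and 1). Gdf10 and Gdf2 are neighbours on chromosome 14 whose windows overlap, so their counts may share peaks. Lgr5, Wif1 and Gli1 all lie on chromosome 10, starting at 115450314, 121034004 and 127329882. Rspo3, Dusp6 and Gdf11 of these lists lie on it too, and had no peak. Whether the peaks of the first 3 go with their place on the chromosome was not tested.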

How the data were processed

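Methyl-CpG capture sequencing of genomic DNA was described for 6 libraries. The build is mm10, and HOMER, SAMtools, Picard and BWA are named per the submitters' processing notes; versions, thresholds and the control for peak calling are not given in the sources used here. The deposited lists of 4 libraries hold chromosome, start and end in base pairs; starts were read as 0-based and are printed 1-based. Each list is 1 library with no replicate, and no test was made.

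Genes came from RefSeq on GRCm38.p6 (21887 protein-coding genes on nuclear chromosomes). That table gives no strand or exons, so exon, intron and untranslated region could not be told apart; start sites and strands came from the RefSeq promoter table (37 of 51 members). Peaks overlapping by at least 1 bp were merged across lists. Distances run from the centre of a region to the nearest annotated start. Python 3.11.15, pandas 2.3.3, numpy 2.4.6 and scipy 1.17.1 were used, and counting was tested on simulated peaks. Members and gene lists were chosen with earlier results of these data known. All members are named; of the pathway lists, up to 3 genes with peaks in the most lists are named. Alternatives changed the window, the overlap rule, shared loci and the peaks kept.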

Additional observations from a re-analysis of the deposited data

How the results depend on the processing

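Over 8 counts and 9 settings, 43 of 61 values stayed within 1.5 times the value given above. Shares of all protein-coding genes were not computed under these settings. The counts below therefore do not show whether the excess of the members over all genes holds there. With 50 kb on each side of the gene, 16, 26 and 24 members had a peak with hairpin 133 at 0 h, hairpin 14 at 0 h and hairpin 133 at 24 h, and regions of both hairpins lay near 8 members at 0 h, 11 at 24 h and, for all 4 lists, 6. Within 2 kb of an annotated start (37 members, so fewer genes by construction), 5 members (hairpin 133, 0 h), 8 (hairpin 14, 0 h) and 8 (hairpin 14, 24 h) had a peak, in 21 regions. Leaving out peaks that had the same start and end with both hairpins left 7 members with hairpin 14 at 24 h, and 0 members with a region of both hairpins at 0 h, 0 at 24 h and 0 in all lists, a removal that takes out such regions by its construction. With only peaks that overlap a peak of another list, 6 members had a peak with hairpin 14 at 0 h, 7 with hairpin 133 at 24 h and 8 with hairpin 14 at 24 h, and 11 regions were left. With the gene body alone, 8 and 12 members had a peak at 0 h (hairpins 133 and 14) and 14 and 13 at 24 h. The list of hairpin 14 at 0 h, first in the counts above, was not first with the gene body alone, within 2 kb of a start (hairpin 133 at 24 h had 10) or with only peaks that overlap another list, and with the body alone its count was below that of hairpin 14 at 24 h. Joining peaks up to 500 bp apart, a setting chosen after seeing the data, gave 5 members with a region of both hairpins at 0 h, 8 at 24 h and 4 in all lists, the last with Chrd. No paired analysis was possible because no result comes from a test; the times of each hairpin, 2 pairs of libraries, are given side by side. With 1 library per group none was left out. Peaks have no score, so a stricter threshold could not be tried, and depth is unknown.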
